A study of Mus musculus with 18 samples.

Results

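The proteasome genes of the mouse liver were taken as all genes whose symbol begins with Psm, a letter from a to g and a number, which gave 47 of the 12019 genes in the deposited comparison table. All 47 were known members of the complex or its helpers: 18 core subunits (8 of the alpha type, 7 constitutive and 3 immunoproteasome subunits of the beta type), 17 subunits of the regulatory particle, 3 chaperones of base assembly, 4 chaperones of core assembly, and 5 activators or inhibitors. Liver RNA came from C57BL/6J mice after 8 weeks of intervention that began at 21 weeks of age. Free (ad libitum) feeding served as the control, with 6 labelled libraries, and each of the other groups had 3, which makes 18, while the design text speaks of 30 mice. Those groups were restriction of calories by 30%, and chow carrying TM5614 (20 mg/kg/day), metformin (37.5 mg/kg/day) or rapamycin (42 mg/kg/day). Genotype is labelled C57BL6 throughout, and the labels give no sex. Rapamycin inhibits the kinase mTOR, metformin is a glucose-lowering biguanide, and TM5614 is known as an inhibitor of PAI-1, the plasminogen activator inhibitor.

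The proteasome is the barrel-shaped protease that degrades proteins tagged with ubiquitin. Its core holds rings of alpha subunits, which form the gate, and rings of beta subunits, of which Psmb5, Psmb6 and Psmb7 cut peptide bonds. Interferon replaces these by the immunoproteasome subunits Psmb8, Psmb9 and Psmb10, which favour peptides for class I antigen presentation. A regulatory particle of Psmc ATPases and Psmd subunits binds ubiquitin chains, removes them and unfolds the substrate. The transcription factor NRF1, encoded by Nfe2l1, is known to raise proteasome genes when proteasome activity falls.

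The values come from the authors' deposited table, which gives a mean per group and, for each intervention, a log2 fold change relative to the control with its adjusted p. Means are in normalized counts, that is gene counts divided by a size factor. A gene was said to rise or fall where the authors' adjusted p was under 0.05. Values per library were not used and no SD can be given; the spread between libraries is contained in that adjusted p alone, and since nothing ties the libraries to separate mice it may be technical. The smallest means above 0 took 3 distinct values under 0.5 in the control column (0.315 to 0.350), as many as in each group of 3 libraries, so that the number of libraries behind the control mean is uncertain. Over all genes with an adjusted p, 9.74% rose and 9.24% fell under restriction. Hepatocyte markers were abundant in all groups, each of the 8 having a mean of 7705 normalized counts or more, but they were not constant under restriction: 2 rose, 3 fell and 3 did not pass. Alb had 0.50 and Cyp2e1 0.99, while Fabp1, which had that lowest mean, had -1.23, Serpina1c -0.45 and Ttr -0.34 by the authors' deposited table. Of the 3 erythroid markers tested, 1 fell under restriction, Alas2 (-2.34, adjusted p = 4.59e-28 by the authors' deposited table), and 2 did not pass. Those 2 lay above 0, Hba-a1 at 0.89 (adjusted p = 0.853) and Hba-a2 at 1.37 (adjusted p = 0.684) by the authors' deposited table. The part of these shifts in the proteasome values was not tested. In these bulk libraries, fewer cells of a type and less RNA per cell cannot be told apart.

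Caloric restriction lowered part of the proteasome genes. Under the compounds none passed, which is near the low shares over all genes there. The differences between interventions were not tested. Of the 47 genes, 12 fell, none rose and 35 did not pass, which is 25.5% lower, against 9.24% lower and 9.74% higher over all 11760 genes with an adjusted p. Among genes with a mean of at least 100 normalized counts over the groups, 10 of 41 proteasome genes fell (24.4%), against 10.9% of 6754 genes. The log2 fold change was below 0 for 42 of the 47 genes, and its median over the 46 with a mean of at least 10 was -0.20, against 0.01 over all 11201 genes at that level. Among genes with a mean of at least 100, it was below 0 for 37 of 41 proteasome genes and for 44.4% of all 6762 genes. The changes were mostly small: 5 of the 12 genes that fell had a log2 fold change of at least 0.5 in size. The genes nearest to the threshold were Psmb3 (adjusted p = 0.0336) inside it and Psma2 (0.0663) and Psma4 (0.0671) outside it by the authors' deposited table.

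**Figure D1:**
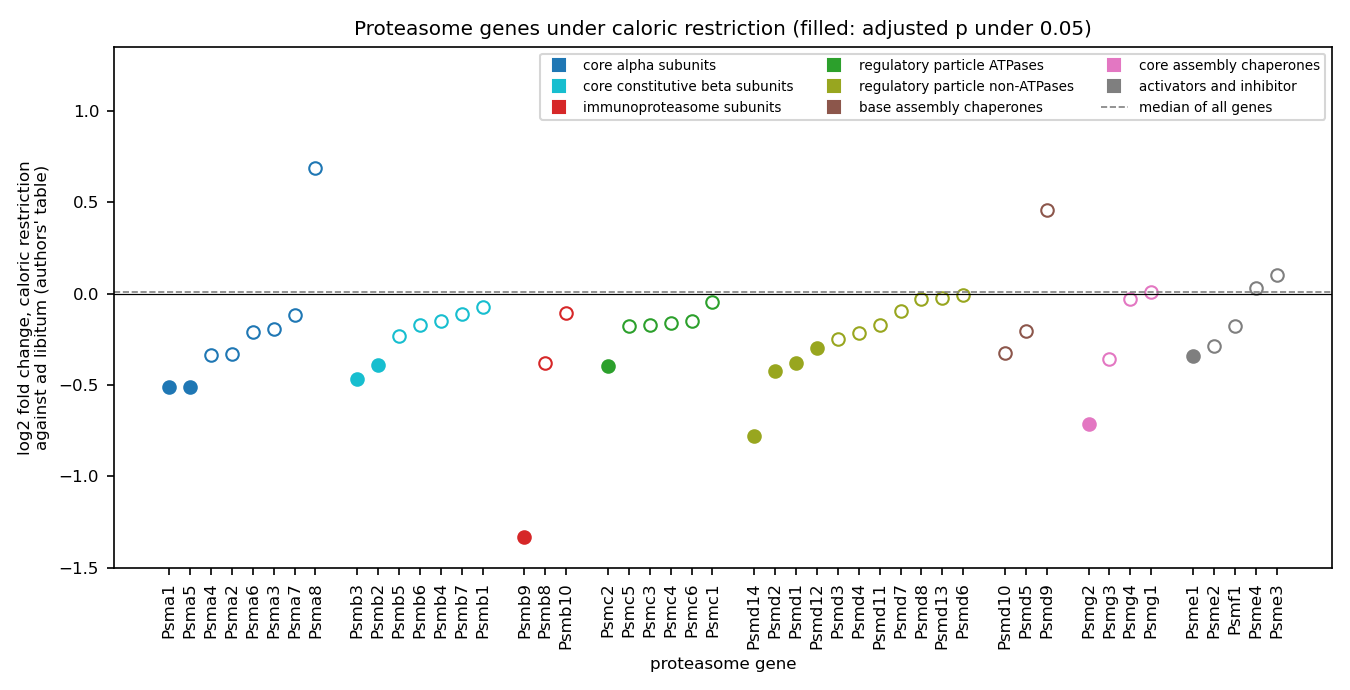
Log2 fold change of each of the 47 proteasome genes under caloric restriction against ad libitum feeding, in the authors' table, grouped by role. Filled points passed an adjusted p of 0.05. The 12 filled points all lie below 0 and are spread over 7 of the 8 roles. Psma8 and Psmd9, both open, lie highest.

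The stretches of promoter of 3 of the most clearly lowered genes are shown because these genes fell together under caloric restriction. They are the bases before the transcription start in RefSeq, on GRCm38.p6, read 5′ to 3′ on the strand of the gene, with bases that GENCODE annotates as exon left out. Capitals mark each CCAAT box, CCAAT or its reverse complement ATTGG, the site of the factor NF-Y. The stretches lie at chr2:61711444-61711693 (plus strand) for Psmd14, chr3:108256676-108256877 (plus strand) for Psma5 and chr7:114276119-114276366 (minus strand) for Psma1.
Psmd14: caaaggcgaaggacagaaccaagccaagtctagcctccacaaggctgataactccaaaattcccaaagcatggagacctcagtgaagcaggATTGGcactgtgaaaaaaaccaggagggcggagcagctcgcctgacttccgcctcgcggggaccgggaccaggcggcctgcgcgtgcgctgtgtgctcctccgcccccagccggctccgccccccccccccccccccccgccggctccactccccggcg
Psma5: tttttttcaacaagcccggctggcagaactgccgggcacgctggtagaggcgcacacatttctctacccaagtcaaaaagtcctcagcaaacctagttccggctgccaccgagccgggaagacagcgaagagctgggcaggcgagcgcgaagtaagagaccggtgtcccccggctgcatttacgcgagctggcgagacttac
Psma1: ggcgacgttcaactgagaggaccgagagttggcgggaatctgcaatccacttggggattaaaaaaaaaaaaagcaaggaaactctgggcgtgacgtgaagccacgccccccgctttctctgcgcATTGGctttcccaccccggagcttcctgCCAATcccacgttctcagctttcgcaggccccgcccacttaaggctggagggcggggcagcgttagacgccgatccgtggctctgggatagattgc
In the 250 bases before the start, a CCAAT box on either strand was present in 13 of the 39 proteasome genes with a RefSeq promoter and in 37.5% of 27025 genes. It was present in 5 of the 10 such genes that fell and in 8 of the 29 that did not pass. The core of the antioxidant response element, TGACNNNGC, to which NRF1 and NRF2 bind with small MAF proteins, was present in 5 of the 39 (Psmb5, Psmb6, Psmc6, Psmd12 and Psmd9), a share of 12.8% against 11.5% of all genes. The interferon factor motif, GAAA followed after 2 bases by GAAA, was present in 3 of the 39 (Psmb3, Psmd4 and Psmd9) and in 3.46% of all genes, and the STAT motif TTCNNNGAA in 2 (Psmb8 and Psmg1) and in 8.13%. All were searched on both strands. Here all genes means the 27025 with a RefSeq promoter, and not those of the deposited comparison table alone. The printed stretches hold CCAAT boxes alone of these motifs, 1 for Psmd14, 2 for Psma1 that do not overlap, and none for Psma5. These shares describe letters in a window and not binding.

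The alpha ring of the core was lower under caloric restriction in its 7 widely expressed genes, 2 of which passed. Psma1 had means of 697 in the control, 763 under rapamycin, 703 under metformin, 665 under TM5614 and 489 under caloric restriction by the authors' deposited table (-0.51 on the log2 scale for restriction, adjusted p = 1.54e-05). Psma5 had 588, 578, 591, 503 and 413 in the same order by the authors' deposited table (-0.51, adjusted p = 1.31e-05). In both genes the mean under restriction was the lowest of the 5. Psma3, with the highest means of the alpha genes, had 1080, 1091, 1123, 1029 and 945 by the authors' deposited table and did not pass (-0.19, adjusted p = 0.332). Psma2, Psma4, Psma6 and Psma7 lay between -0.34 and -0.12 by the authors' deposited table. Psma8, the testis form of an alpha subunit, was near the limit of detection, with 4.38, 6.19, 8.04, 4.19 and 7.02 normalized counts by the authors' deposited table (0.69 for restriction, adjusted p = 0.626).

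The constitutive beta subunits showed the same direction, with 2 of 7 genes past the threshold. Psmb2 had means of 421, 415, 401, 358 and 321 by the authors' deposited table (-0.39 for restriction, adjusted p = 0.00465), and Psmb3, a structural subunit without a catalytic site, had 593, 610, 578, 468 and 429 by the authors' deposited table (-0.47, adjusted p = 0.0336). Neither is among the subunits that carry the constitutive proteolytic activity. Those subunits did not pass. Psmb5, the chymotrypsin-like subunit, had 839, 863, 969, 767 and 716 by the authors' deposited table (-0.23, adjusted p = 0.263). The caspase-like subunit Psmb6 had 881, 920, 976, 774 and 782 by the authors' deposited table (-0.17, adjusted p = 0.530). Psmb7, the trypsin-like subunit, had 1088, 1122, 1209, 1037 and 1006 by the authors' deposited table (-0.11, adjusted p = 0.615). For Psmb6 the lowest mean was that of TM5614, and for Psmb5 and Psmb7 that of restriction. Psmb4, the highest of the class, had 1327, 1262, 1474, 1159 and 1195 by the authors' deposited table (-0.15, adjusted p = 0.445). Summed over the 14 constitutive core genes, without Psma8, the means came to 11412 in the control, 11640 under rapamycin, 12114 under metformin, 10366 under TM5614 and 9682 under restriction.

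Of the 3 immunoproteasome subunits 1 fell under caloric restriction, and it had the largest fall of the 47 genes on the log2 scale. Psmb9 had means of 67.7 in the control, 63.2 under rapamycin, 71.9 under metformin, 50.9 under TM5614 and 26.9 under restriction by the authors' deposited table (-1.33, adjusted p = 1.06e-05). The mean under restriction was thus the lowest, with TM5614 next and the other 3 groups above it. Psmb8, the counterpart of Psmb5, had 223, 198, 233, 175 and 171 by the authors' deposited table (-0.38, adjusted p = 0.114). Psmb10, the counterpart of Psmb7, had 254, 231, 248, 220 and 235 by the authors' deposited table (-0.11, adjusted p = 0.721). The differences between the 3 subunits were not tested.

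To compare levels between genes, group means were divided by the length of the principal GENCODE transcript. On this scale of normalized counts per kilobase, Psmb9 stood at 4.53% of its counterpart Psmb6 in the control, 4.05% under rapamycin, 4.35% under metformin, 3.88% under TM5614 and 2.03% under restriction. Psmb8 stood at 14.6% of Psmb5 in the control and at 12.6% to 13.3% in the 4 treated groups, and Psmb10 at 20.6% of Psmb7 in the control, 20.7% under restriction and 18.2% to 18.7% under the compounds. Under restriction the ratio of Psmb9 was the lowest of the 5 groups, while those of the other pairs lay within the range of the other groups (Psmb8) or just above it (Psmb10); these ratios were not tested. Over the 14 constitutive core genes the levels per kilobase in the control ran from 187 for Psma2 to 1121 for Psmb4 with a median of 771, while the median of the immunoproteasome subunits was 137. Annotated lengths include long 3′ ends that may not be used in liver, as for Psma2, so these levels are approximate.

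**Figure D2:**
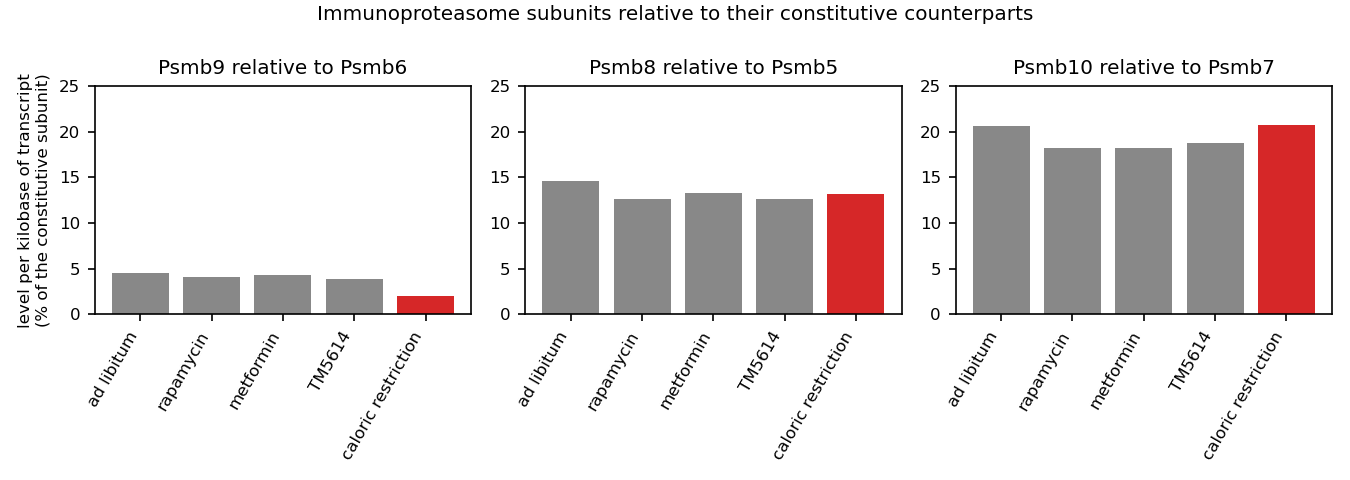
Level per kilobase of transcript of each immunoproteasome subunit as a percentage of its constitutive counterpart, for the 5 group means; there is no error bar because no value per library was used. Psmb9 stands at 2.03% of Psmb6 under caloric restriction (red) and at 3.88% to 4.53% in the other groups.

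Psmb9 lies on chromosome 17 from 34181987 to 34187764 on the minus strand and shares 212 bases at its start with Tap1, a subunit of the peptide transporter of class I presentation, on the plus strand. Psmb8 lies on chromosome 17 from 34197721 to 34201454 and Psmb10 on chromosome 8 from 105935735 to 105938444. Tap1 fell under caloric restriction from 138 to 75.5 normalized counts by the authors' deposited table (-0.87, adjusted p = 0.00646). The strand setting of the counting is not given in the sources used here, so reads of the shared stretch cannot be told apart. Of 12 genes of class I antigen presentation 4 fell, 1 rose and 7 did not pass (median -0.13), against 9.24% lower and 9.74% higher over all genes, so that the 1 higher gene is near that share. Tap2, by the authors' deposited table, had -0.38 (adjusted p = 0.0489) and Erap1, which trims peptides, 0.41 (adjusted p = 6.47e-04). Calr and Pdia3, general chaperones of the endoplasmic reticulum, had -1.21 and -0.66 by the authors' deposited table. The class I molecules themselves did not pass: H2-K1, by the authors' deposited table, had 0.17 (adjusted p = 0.339), H2-D1 0.13 (adjusted p = 0.474) and B2m -0.06 (adjusted p = 0.796). Of 23 interferon response genes 7 fell, none rose and 16 did not pass (median -0.59), against the same shares; those that fell included Ifi47 at -2.06, Oasl1 at -1.91 and Bst2 at -0.73 by the authors' deposited table. Both lists were drawn up with earlier results of these data known, so their counts are no independent support. Nlrc5, the activator of class I genes, had 0.48 by the authors' deposited table (adjusted p = 0.0598).

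Some macrophage markers were lower under restriction, as Psmb9 was. Of 12 Kupffer cell and macrophage markers 11 were in the table, of which 4 fell, 6 did not pass and 1 (Marco) had no adjusted p. The share over all genes was 9.24% lower. Those that fell were C1qa (-0.80, adjusted p = 0.00714), C1qb (-0.92, adjusted p = 0.0484), C1qc (-0.97, adjusted p = 0.00375) and Cd5l (-1.33, adjusted p = 0.0402) by the authors' deposited table. Cd163 (0.39) and Cd68 (0.01) lay above 0 by the authors' deposited table. Their summed mean was 2040 normalized counts in the control, 1643 under rapamycin, 1476 under metformin, 1571 under TM5614 and 1061 under restriction, and none was at 0. Psmb9 had 67.7, 63.2, 71.9, 50.9 and 26.9 in the same order by the authors' deposited table. Differences between Psmb9 and the markers in the order of the groups were not tested. Marco made a large part of the control sum, with 261 in the control and 27.3 to 44.5 in the other groups by the authors' deposited table. Without it, left out after its values were seen, the sums were 1778, 1599, 1448, 1527 and 1029 in the same order. The summed means of 4 antigen-presenting cell markers were 926, 1357, 928, 868 and 769 in the same order, with none past the threshold under restriction. T and NK cell markers summed to 16.9 to 22.5 over the 5 of 9 in the table, and B and plasma cell markers to 31.2 to 51.9 over 5 of 7. The part of these cells in the fall of Psmb9 was not tested.

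The ATPase ring of the regulatory particle, which unfolds substrates, was below the control in all 6 genes under restriction, and 1 passed. Psmc2 had means of 734 in the control, 816 under rapamycin, 788 under metformin, 746 under TM5614 and 558 under restriction by the authors' deposited table (-0.40, adjusted p = 0.00306). The other 5 ATPase genes lay between -0.17 and -0.04 by the authors' deposited table. Psmc1, the highest of them, had 932, 1042, 915, 855 and 905 by the authors' deposited table (-0.04, adjusted p = 0.810), and Psmc6, the lowest by its mean over the groups, had 591, 615, 601, 610 and 532 by the authors' deposited table (-0.15, adjusted p = 0.370).

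The other 11 subunits of the regulatory particle were all below the control under restriction, and 4 of them passed. Psmd14, the deubiquitinase that removes ubiquitin chains from substrates as they are degraded, had means of 426 in the control, 439 under rapamycin, 476 under metformin, 392 under TM5614 and 248 under restriction by the authors' deposited table (-0.78, adjusted p = 2.66e-11). It had the smallest adjusted p of the 47 genes and lies on chromosome 2 from 61711694 to 61800376. The scaffold subunits followed. Psmd1 had 1114, 1294, 1168, 1094 and 857 by the authors' deposited table (-0.38, adjusted p = 8.37e-05), and Psmd2, the highest of all 47 by its mean, had 1661, 1806, 1587, 1622 and 1238 by the authors' deposited table (-0.42, adjusted p = 7.06e-04). For Psmd14, Psmd1 and Psmd2 the mean under restriction was the lowest of the 5. Psmd12, a subunit of the lid, had 675, 667, 695, 641 and 549 by the authors' deposited table (-0.30, adjusted p = 0.0274). The other 7 did not pass, and Psmd6, Psmd8 and Psmd13 lay between -0.03 and -0.01 by the authors' deposited table. The ubiquitin receptor Psmd4 had 723, 819, 755, 638 and 623 by the authors' deposited table (-0.22, adjusted p = 0.183).

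Among the assembly chaperones, 1 of 4 for the core and none of 3 for the base passed under restriction. Psmg2, which pairs with Psmg1 to build the alpha ring, had means of 92.0 in the control, 85.6 under rapamycin, 89.5 under metformin, 80.2 under TM5614 and 56.1 under restriction by the authors' deposited table (-0.71, adjusted p = 0.00264). Its partner Psmg1 had 135, 130, 148, 140 and 136 by the authors' deposited table (0.01, adjusted p = 0.977). Psmg3 and Psmg4, which form the other pair, by the authors' deposited table, had -0.36 (adjusted p = 0.389) and -0.03 (adjusted p = 0.962), Psmg4 with means of 36.0, 32.4, 41.9, 43.3 and 35.3. Of the base chaperones, Psmd10 (gankyrin), by the authors' deposited table, had 94.3, 108, 112, 93.5 and 75.5 (-0.32, adjusted p = 0.342), and Psmd5 had -0.21 (adjusted p = 0.347). Psmd9 stood apart from them, with 363, 304, 374, 375 and 498 by the authors' deposited table (0.46, adjusted p = 0.0911), and was highest under restriction. The annotated span of Psmd9 shares 10921 bases with Hpd, an abundant liver enzyme gene on the other strand. Hpd had 11835 normalized counts with free feeding and 17260.5 under restriction by the authors' deposited table (0.54, adjusted p = 0.00846). The part of reads from Hpd in the Psmd9 value was not tested.

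Psme1, which with Psme2 forms the interferon-inducible PA28 cap, had means of 745 in the control, 762 under rapamycin, 798 under metformin, 638 under TM5614 and 588 under restriction by the authors' deposited table (-0.34, adjusted p = 0.0196). Psme2 had 501, 529, 538, 443 and 411 by the authors' deposited table and did not pass (-0.29, adjusted p = 0.0695). A further copy of it, Psme2b, is annotated elsewhere, and how reads were divided between them is not given in the sources used here. Psme3, the nuclear PA28 form, had 423, 507, 410, 495 and 454 by the authors' deposited table (0.10, adjusted p = 0.624), and Psme4, the nuclear activator PA200, had 968, 1062, 973, 1065 and 989 by the authors' deposited table (0.03, adjusted p = 0.905). Neither of the nuclear forms was lowest under restriction. Psmf1, an inhibitor, was the lowest of the class by its means, at 223, 206, 212, 200 and 197 by the authors' deposited table (-0.18, adjusted p = 0.407). Differences between the 4 activators were not tested.

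Of the 47 genes 9 overlapped a protein-coding gene on the other strand. Beside Psmb9 and Psmd9, Psmb7 shared 6571 bases with Nek6, which fell (-0.75, adjusted p = 1.75e-06 by the authors' deposited table), and Psmd13 shared 342 with Sirt3, which rose (0.33, adjusted p = 0.0262 by the authors' deposited table). Psmc3 shared 4579 bases with Slc39a13 (0.22, adjusted p = 0.609 by the authors' deposited table). Psmd1, which fell, shared 12945 bases with Htr2b, and Psme1 14 bases with Emc9; no values of these partners were used, nor of those of Psma4 and Psmd5. How far reads of a partner enter these values was not tested.

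TM5614 moved no proteasome gene past the threshold. Of 46 genes with an adjusted p none rose and none fell, against 2.01% and 1.95% of all 10834 genes, with DESeq2's adjusted p as deposited by the authors. For a list of this size that is near the shares over all genes. The table has no column of unadjusted p, so no count at that level can be given. The median log2 fold change over 46 genes was -0.12, against -0.01 over all genes with a mean of at least 10. Of 41 proteasome genes at a mean of 100 or more, 32 were below 0, against 52.2% of all genes at that level. The 7 constitutive beta genes had a median of -0.19 and all lay below 0, as did the 3 immunoproteasome genes (median -0.35). The ATPase genes divided into 3 below and 3 above 0. The smallest adjusted p were those of Psma5 (-0.23, adjusted p = 0.193) and Psmb2 (-0.23, adjusted p = 0.238), while Psmb9, by the authors' deposited table, had -0.42 (adjusted p = 0.352). All 4 comparisons share the control samples, so their fold changes are not independent. Without reference to the control, the mean under TM5614 lay below both that of rapamycin and that of metformin for 35 of the 41 proteasome genes with a mean of at least 100, against 41.5% of all 6762 genes at that level.

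Rapamycin and metformin likewise moved no proteasome gene past the threshold. Under rapamycin none of 46 genes rose or fell, against 0.714% higher and 0.675% lower over all 10369 genes. Under metformin none of 43 did, against 0.163% and 0.0816% of 7350 genes, by the same adjusted p of DESeq2. With shares this low, the absence of called proteasome genes is near the shares over all genes. The medians over 46 genes were 0.04 under rapamycin and 0.05 under metformin, against 0.01 over all genes with a mean of at least 10 in both comparisons. Under rapamycin 16 of the 17 genes of the regulatory particle had values above 0, while all 3 immunoproteasome genes and all 4 core chaperones had values below 0. Over the 41 proteasome genes with a mean of at least 100, 30 were above 0 under rapamycin and 29 under metformin, against 58.5% and 52.6% of all genes at that level. The ATPase gene Psmc4 was nearest to the threshold, with means of 633 in the control, 775 under rapamycin, 727 under metformin, 644 under TM5614 and 566 under restriction by the authors' deposited table (0.29, adjusted p = 0.0848 for rapamycin). Psmd1 followed (0.22, adjusted p = 0.171 by the authors' deposited table). Under metformin the constitutive beta genes had a median of 0.15, with Psmb5 highest at 0.21 (adjusted p = 0.916 by the authors' deposited table). Metformin gave no adjusted p for 4 genes, Psma8, Psmb9, Psmg3 and Psmg4.

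None of the proteasome genes described above passed under a compound where an adjusted p was given. It was lacking for Psma8 under all compounds, and for Psmb9, Psmg3 and Psmg4 under metformin. Given for rapamycin, metformin and TM5614 in this order, the log2 fold changes were, by the authors' deposited table, -0.10, 0.08 and -0.42 for Psmb9, -0.17, 0.07 and -0.35 for Psmb8 and -0.14, -0.03 and -0.21 for Psmb10. Their counterparts had 0.06, 0.15 and -0.19 (Psmb6), 0.04, 0.21 and -0.13 (Psmb5) and 0.04, 0.15 and -0.07 (Psmb7) by the authors' deposited table. The fold changes of the immunoproteasome genes thus lay below those of their counterparts in each compound group, differences that were not tested. The comparisons share the control, so these differences are not independent of each other. Of the genes that fell under restriction, Psmd14 had 0.04, 0.16 and -0.12, Psma5 -0.03, 0.00 and -0.23 and Psma1 0.13, 0.01 and -0.07 by the authors' deposited table. Psmd1 had 0.22, 0.07 and -0.03, and Psmd2 0.12, -0.07 and -0.03 by the authors' deposited table. Each of these 5 was below 0 under TM5614, as were 36 of the 46 proteasome genes with a mean of at least 10. Psmc2, which also fell under restriction, had 0.02 under TM5614 by the authors' deposited table. At the ends of the range of means in their classes, Psma8 had 0.51, 0.90 and -0.07, Psma3 0.02, 0.06 and -0.07, Psmb4 -0.07, 0.15 and -0.20, Psmb2 -0.02, -0.07 and -0.23, Psmc1 0.16, -0.03 and -0.12 and Psmc6 0.06, 0.02 and 0.05 by the authors' deposited table. Among the chaperones Psmd9 had -0.25, 0.04 and 0.05, Psmd10 0.19, 0.25 and -0.01, Psmg1 -0.05, 0.13 and 0.06, and Psmg4 -0.16, 0.22 and 0.27 by the authors' deposited table. Psme4 had 0.13, 0.01 and 0.14 and Psmf1 -0.12, -0.08 and -0.15 by the authors' deposited table.

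**Figure D3:**
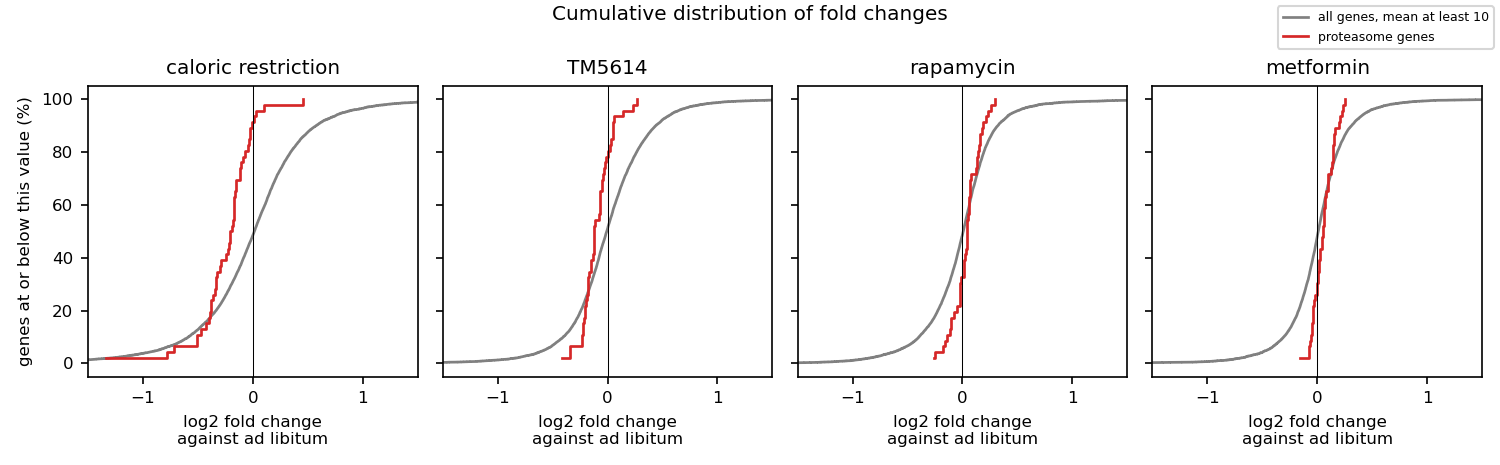
Share of genes at or below each log2 fold change against ad libitum feeding, for the 46 proteasome genes with a mean of at least 10 (red) and all 11201 genes at that level (grey), in each of the 4 comparisons, which share the control. The red curve lies left of the grey one over most of its course under caloric restriction (medians -0.20 and 0.01), and runs steeper than the grey one in all 4 panels.

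Across the groups, restriction held the lowest mean for most of these genes. Of the 41 with a mean of at least 100, 29 were lowest of the 5 groups under restriction, 8 under TM5614, 2 under rapamycin and 1 each under metformin and in the control, against 29.4%, 22.8%, 12.9%, 16.5% and 18.4% of all 6762 genes at that level. The highest mean was that of metformin for 19, rapamycin for 16, the control for 4, and TM5614 and restriction for 1 each, the last being Psmd9, against 15%, 21.8%, 12.1%, 15.9% and 35.3% of all genes in that order. Restriction was below the other 3 treated groups in 29 of the 41, against 32.6%. Set against the mean of the other 3 treated groups, which leaves out the control, restriction had a log2 ratio below 0 for 44 of 46 proteasome genes at a mean of 10 or more (median -0.19), against 5633 of 11201 genes (median -0.00).

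**Figure D4:**
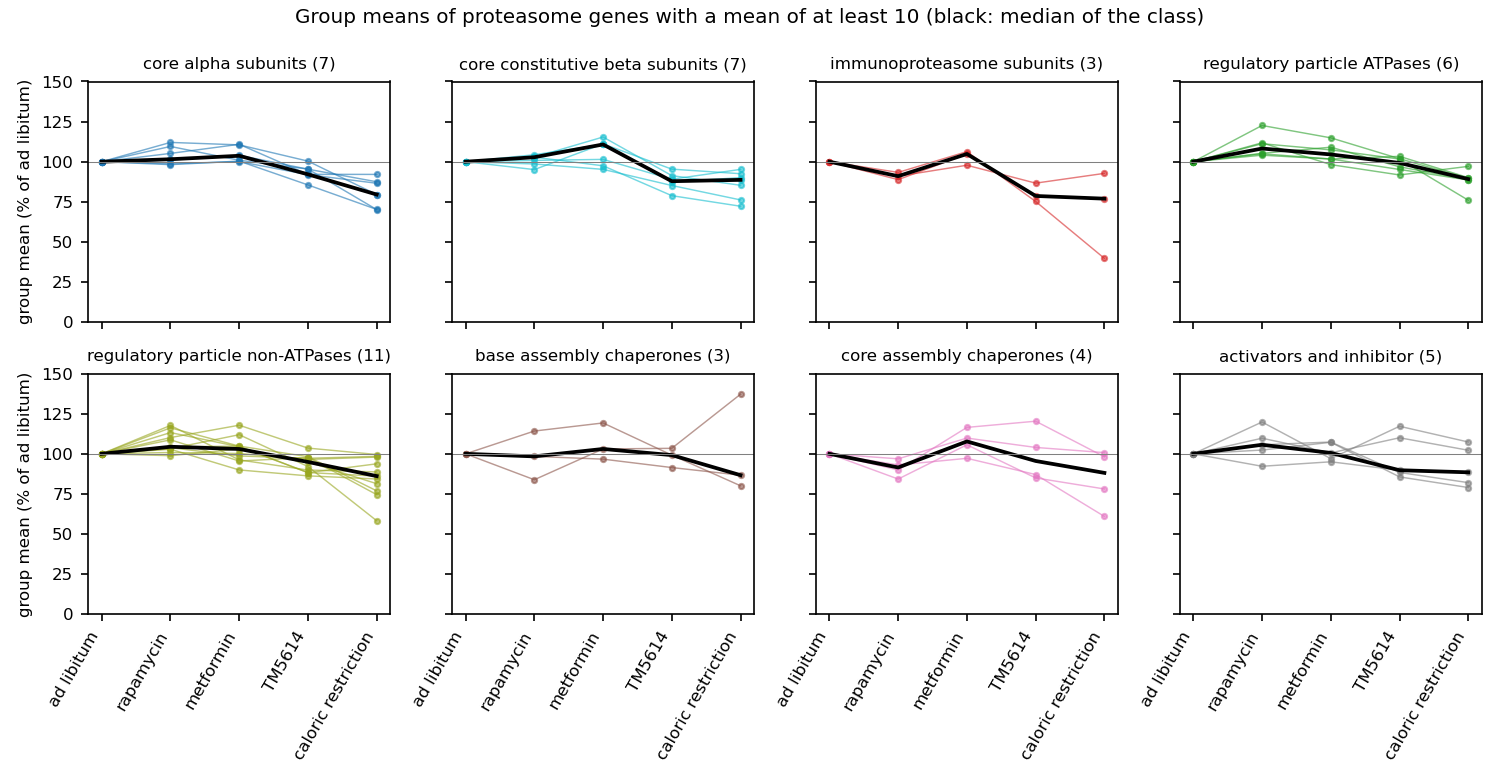
Group means of the proteasome genes with a mean of at least 10, as a percentage of the ad libitum mean (thin lines, 1 per gene; black line, median of the class), in 8 panels by role with the number of genes in parentheses. Caloric restriction lies lowest for most lines, Psmb9 and Psmd14 lowest within their panels, while Psmd9 rises above the control mean.

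Of the 9 proteasome partners in the table that lie outside the name pattern, none fell, 1 rose and 8 did not pass under caloric restriction (median 0.04), near the 9.74% higher and 9.24% lower over all genes. The gene that rose was Zfand5, an activator of the proteasome, with means of 456 and 747 by the authors' deposited table (0.71, adjusted p = 0.0285). The maturation factor Pomp, by the authors' deposited table, had -0.28 (adjusted p = 0.120), the deubiquitinase Usp14 -0.35 (adjusted p = 0.0518) and the ubiquitin receptor Adrm1 0.04 (adjusted p = 0.866). Among genes for ubiquitin and its activation, the polyubiquitin gene Ubb, by the authors' deposited table, went from 3414 to 6956 normalized counts (1.03, adjusted p = 9.12e-06), and the activating enzyme Uba1 had -0.25 (adjusted p = 0.0164). Rps27a, which encodes ubiquitin fused to a ribosomal protein, had 0.14 by the authors' deposited table (adjusted p = 0.614).

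In the list of proteasome gene control by NRF1, 2 of 8 genes rose, 1 fell and 5 did not pass under restriction (median 0.37), against 9.74% higher and 9.24% lower over all genes; 1 lower gene in 8 is near that share. Nfe2l1, by the authors' deposited table, went from 912 to 1260 normalized counts (0.47, adjusted p = 0.00176) and Mafg, which encodes a small MAF partner, from 176 to 317 (0.85, adjusted p = 0.00151). Vcp, the unfoldase that extracts NRF1 and other proteins from membranes, by the authors' deposited table, had -0.27 (adjusted p = 0.00582). Nfe2l2, which encodes NRF2, by the authors' deposited table, had -0.07 (adjusted p = 0.883). The mRNA of NRF1 was higher in the group in which 12 of the 47 genes fell. A link between the 2 was not tested, and these values do not measure NRF1 protein or its activity. Of 8 ubiquitin shuttles and receptors 2 rose, Sqstm1 (0.48, adjusted p = 0.0332) and Ubqln4 (0.41, adjusted p = 0.0154), and 1 fell, Ubqln1 (-0.27, adjusted p = 0.0370), by the authors' deposited table, the 1 lower gene again being near the share over all genes. Under the 3 compounds 1 gene of these 4 lists passed, Uba6 under TM5614 (0.82, adjusted p = 0.0468 by the authors' deposited table). Over all genes 2.01% rose under TM5614, 0.714% under rapamycin and 0.163% under metformin. In the interferon list of 23 genes, against the same shares, 2 rose under TM5614 and 2 under rapamycin. Those under TM5614 were Stat2 (1.15, adjusted p = 0.00323) and Irf9 (0.54, adjusted p = 0.0142) by the authors' deposited table. Those under rapamycin were Irf1 (2.29, adjusted p = 0.0497, just inside the threshold) and Irf9 (0.60, adjusted p = 0.0108) by the authors' deposited table. None of the 3 immunoproteasome genes passed in either group, which for so few genes is near the same shares.

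**Figure D5:**
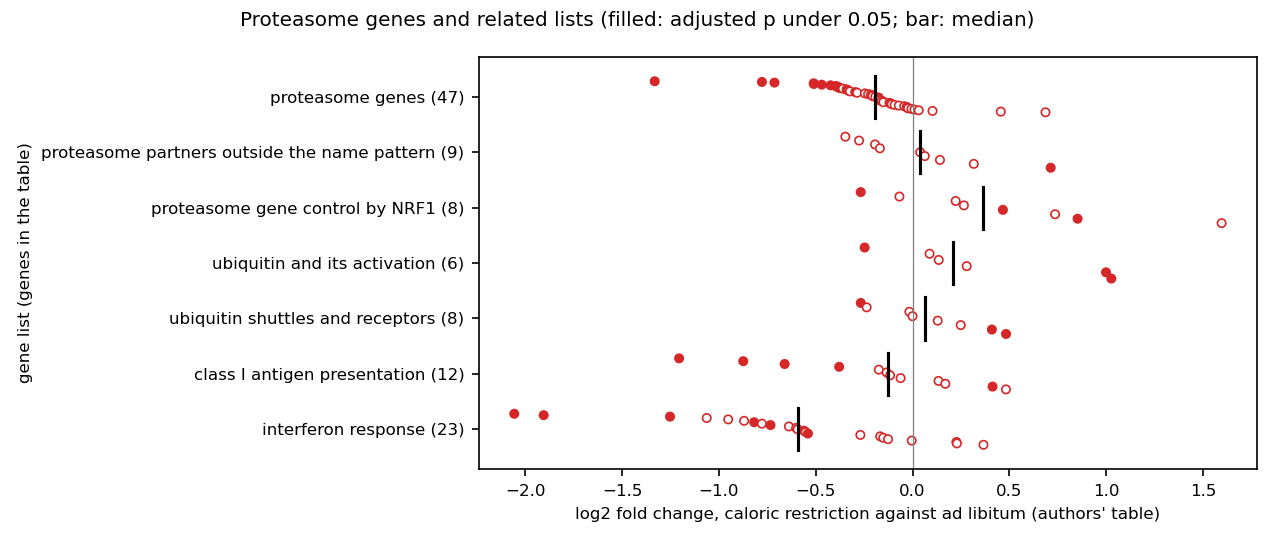
Log2 fold change under caloric restriction against ad libitum feeding for the 47 proteasome genes and 6 related gene lists, 1 point per gene, with filled points at an adjusted p under 0.05 and black bars at the median of each list. The median is -0.19 for the proteasome genes, 0.37 for the NRF1 list, 0.21 for ubiquitin and its activation and -0.59 for the interferon response.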

How the data were processed

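RNA of perfused livers was sequenced after poly(A) selection, per the labels' protocols. Alignment used HISAT2 2.0.5 and mm10, per the submitters' processing notes; for the counter, strand setting and annotation there is no statement in the labels. Per the file headers, the authors' table holds a normalized signal for each group (means of size-factor-scaled gene counts, as its values show), and for each intervention a log2 fold change with its adjusted p-value; its name gives DESeq2 as the authors' tool. The 18 columns of a further table have names that match no label and were not used, so the depth of each library is unknown. No batch is named.

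Members were matched by symbol. Genes were called at an adjusted p under 0.05 and described by counts and medians beside those of all genes (Python 3.11.15, pandas 2.3.3); the counting was tested on simulated data. Lengths and positions are those of GENCODE for mm10. Levels of 10 and 100 are means over the 5 groups. The members and lists were chosen with earlier results of these data known. Named are the immunoproteasome subunits and their counterparts, up to 6 genes past the threshold per comparison, the highest and lowest of each class, and up to 4 called genes of each other list; further genes were chosen after their values were seen. Alternatives were other thresholds, a minimum fold, level filters, a pseudocount of 1, centring and another baseline. Some genes of the related lists are not reported here.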

Additional observations from a re-analysis of the deposited data

How the results depend on the processing

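The number of proteasome genes that fell under caloric restriction was 5 with a minimum log2 fold change of 0.5 in size, in place of 12. At an adjusted p under 0.1, 1 gene rose under caloric restriction (Psmd9) and 1 under rapamycin (Psmc4), in place of 0. All other counts stayed within 1.5 times, and every median of a comparison moved by less than 0.1. For Psmb8, Psmb9 and Psmb10, 11 of 36 alternative values moved by 0.1 or more, all with the other 3 treated groups as the baseline; Psmb9 under caloric restriction was then -1.18 and Psmb10 0.01 in place of -0.11. No paired analysis was possible because the columns of values per library match no label, and the planned limma fits and fits without each replicate were not run for the same reason. The precision of each mean is limited by an unknown depth.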

Other observations

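The authors' deposited table holds a further log2 fold change column headed TM5441, a compound that no label names, without group mean or adjusted p. Its median over the 46 proteasome genes with a mean of at least 10 was 0.01, with 21 of 46 values below 0, against -0.01 over all genes at that level. The values ran from -0.33 for Psmb9 to 0.39 for Psmg4 in the authors' deposited table.

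Within 1000 bases before the annotated start of 8 of the 47 genes, and without overlap, a protein-coding gene starts on the other strand. The closest pair was Psmc2 and the chaperone gene Dnajc2, whose starts lie 32 bases apart.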
